A study of Mus musculus with 4 samples.

Results

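Glycolysis turns glucose into pyruvate and lactate, and the hypoxia response is the gene programme that cells switch on when oxygen is short. The set described here holds 43 mouse genes of these pathways, of 33833 named gene units in the deposited tables. It was listed by gene symbol, with no cut on a measured value, but it was chosen with earlier results of these data known. In it 25 genes encode glucose and lactate transporters, glycolytic enzymes and their regulators. The other 18 encode hypoxia-inducible factor (HIF) subunits, the oxygen-sensing hydroxylases and other HIF targets. All 43 had an entry with status OK in both foot libraries, and 42 in both back libraries. The exception is Arnt, which was joined with its neighbour Ctsk into 1 locus in the back tables.

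Messenger RNA was sequenced from dermal cells of mouse embryos with a LacZ reporter of Axin2, which canonical Wnt signalling induces as its own brake, and the cells were sorted by that reporter. The 4 groups were ventral foot skin at E17.5 labelled Axin2-LacZ positive, ventral foot skin at E17.5 labelled Axin2-LacZ negative, dorsal back skin at E14.5 labelled positive and dorsal back skin at E14.5 labelled negative. Each group holds 1 library, so there is no replicate check, no p-value and no standard deviation anywhere below. Foot and back also differ in stage by the label, so site and stage cannot be told apart. All 4 groups share the reporter and an enzymatic digestion, with collagenase at 1000 U/ml and hyaluronidase at 300 U/ml. Strain, litter and the number of pooled embryos were not given by the labels, and a sorted fraction is a model of Wnt-responsive dermis only as far as the reporter follows Wnt signalling.

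Glycolysis runs from glucose uptake through a preparatory part, in which hexokinase and phosphofructokinase spend ATP, to a yielding part that ends with pyruvate kinase. Lactate dehydrogenase then interconverts pyruvate and lactate, and pyruvate dehydrogenase kinases hold pyruvate back from the mitochondria. In hypoxia, prolyl hydroxylases (Egln genes) no longer mark HIF-alpha for destruction. HIF-alpha then pairs with Arnt and binds short DNA elements with the core ACGTG or GCGTG near many glycolytic genes. Fetal tissues are known to be low in oxygen and to rely on glycolysis.

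Levels were deposited as FPKM (mapped fragments scaled by transcript length and sequencing depth), with a lower and an upper bound from the authors for each value. These bounds cover read counting and assignment inside a library, not variation between animals. Their median size on either side was 22.8% and 14% of the FPKM in the positive-labelled and negative-labelled foot libraries, and 8.89% and 9.83% in the back libraries, over protein-coding genes of at least 5 FPKM. The foot library labelled positive is therefore the least precise. Axin2 itself stood at 9.65 FPKM (bounds 7.10 to 12.5) in the foot library labelled positive and at 12.9 (10.2 to 15.3) in the foot library labelled negative, so the transcript did not follow the foot label. In the back it stood at 4.49 (3.89 to 5.09) in the positive-labelled library and 3.13 (2.63 to 3.64) in the library labelled negative. All 8 dermal fibroblast markers were above 1 FPKM in every library, with summed levels of 7140 and 6710 FPKM in the positive-labelled and negative-labelled foot libraries, and 4360 and 3070 FPKM in the back libraries. The 7 keratinocyte markers summed to 7.56 and 0 FPKM in the positive-labelled and negative-labelled foot libraries, and to 28.9 and 10.4 FPKM in the back libraries. Of these markers, 2 and 0 were above 0 in the positive-labelled and negative-labelled foot libraries, and 4 in each back library. Krt5, Krt14 and Krt15 were listed at 0 in all 4 libraries. The 6 mast cell markers summed to 2.17 FPKM in the foot library labelled positive and 265 in the foot library labelled negative, and to 24.7 and 84.1 FPKM in the positive-labelled and negative-labelled back libraries. Of 6 endothelial markers, Pecam1, Cdh5, Emcn and Tie1 were listed at 0 in both foot libraries, and the other 2 were above 0. The 6 summed to 0.979 and 0.461 FPKM in the positive-labelled and negative-labelled foot libraries. In the back libraries they summed to 5.96 and 4.17 FPKM.

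Log2 ratios below compare FPKM + 1 after each library was divided by a median-ratio factor (1.1 and 1.31 for the positive-labelled and negative-labelled foot libraries, 0.890 and 0.783 for the back libraries), because the median gene as deposited was shifted by 0.74 on the log2 scale between the libraries labelled negative and by 0.30 between those labelled positive, foot over back. FPKM values are printed as deposited unless called rescaled. The value after ± is a margin made from the authors' bounds of both libraries, and is not a standard deviation. A member was compared where it reached 5 FPKM in at least 1 of the 2 libraries and was listed at 0 in neither, and it counts as apart when the log2 ratio was at least 1 in size. In these bulk samples, fewer cells of a type and less RNA per cell cannot be told apart.

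A few enzymes and 1 mitophagy receptor carried the highest levels. Of the 43 members, 22 reached 5 FPKM in a library and 21 never did, and only Aldoa, Tpi1, Pkm2, Ldha and Bnip3l reached 50 FPKM. The 25 glycolysis members summed to 465 and 655 FPKM in the positive-labelled and negative-labelled foot libraries, against 767 and 748 FPKM in the back libraries. Their rescaled sums were 424 and 499 in the foot, against 862 and 956 in the back. The other hypoxia members, without Arnt, summed to 114 and 158 FPKM in the positive-labelled and negative-labelled foot libraries, against 91.8 and 87.0 in the back libraries. Rescaled, these sums lay close together, at 104 and 120 in the foot, against 103 and 111 in the back. Among hypoxia genes the bulk came from Bnip3l, Bnip3, Hif1a and Higd1a. Ankrd37 was listed at 0 in all 4 libraries, and 8 more members were listed at 0 in at least 1: Pfkp, Aldoc, Eno2, Slc16a3, Epas1, Car9, Ddit4 and Ndrg1. An exact 0 in such tables can be a failed estimate, so no fold is given against a 0.

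**Figure D1:**
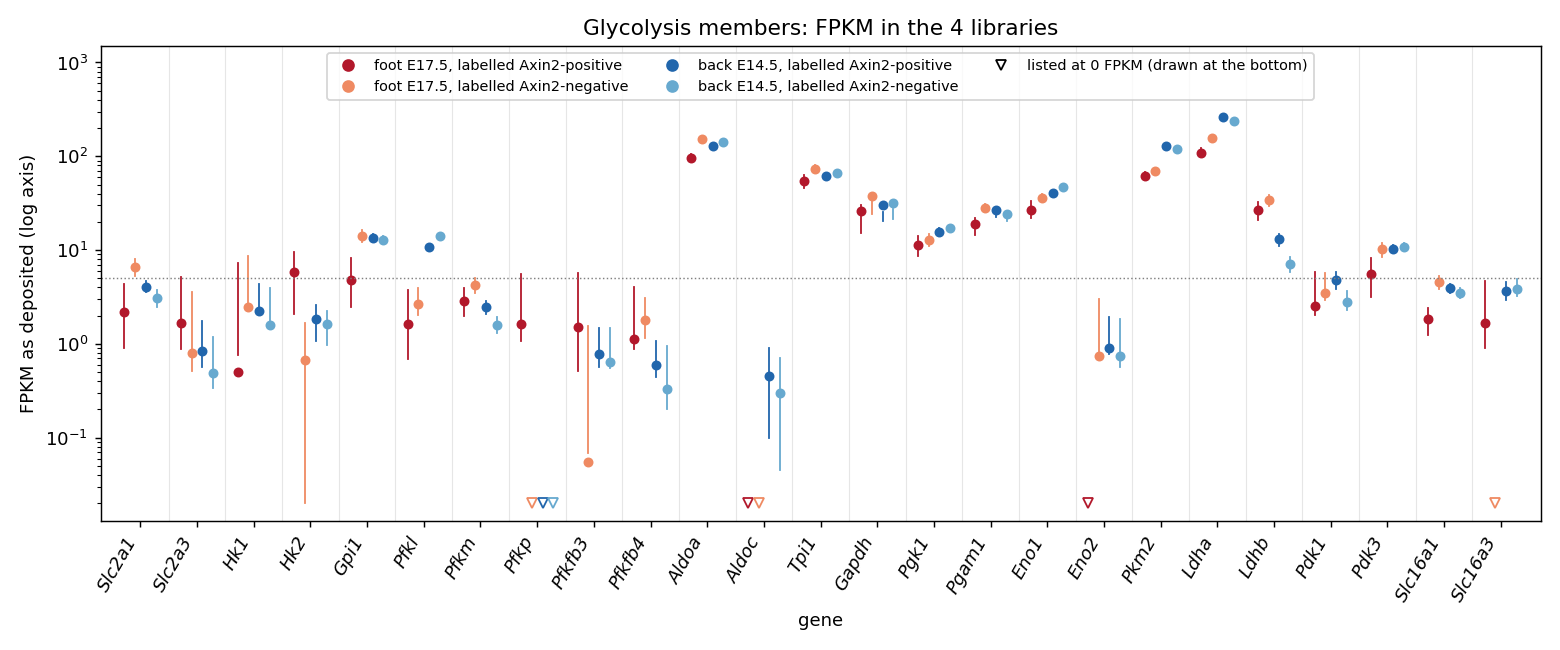
FPKM as deposited (log axis) of the 25 glycolysis members in the 4 libraries, which are told apart by colour; vertical lines span the authors' bounds, open triangles mark values listed at 0, and the dotted line is 5 FPKM. Ldha and Pkm2 are lower and Ldhb higher in both foot libraries than in both back libraries.

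Most glycolytic enzymes stood lower in foot than in back under both reporter labels after rescaling. Between the libraries labelled positive, 11 of 13 compared glycolysis members were lower in the foot, with a median log2 ratio of -0.76 beside 0.00 over all 5276 protein-coding genes compared. Between the libraries labelled negative, 11 of 13 were lower as well, with a median of -0.63 beside 0.04 over 5265 protein-coding genes. As deposited this second median was 0.11, beside 0.73 over the same protein-coding genes, so its sign turned. Rescaling shifts all genes of a library by nearly the same amount. The place of the group below the typical gene was therefore bound to be kept, and is no separate check. The same 11 genes were lower under both labels after rescaling, and 6 of them were lower under both as deposited: Pfkl, Pgk1, Eno1, Pkm2, Ldha and Pdk3.

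Of all 19 members compared between the libraries labelled positive, 1 was apart and higher in the foot and 6 were apart and lower. Among protein-coding genes 14% were apart and higher and 15.4% apart and lower, 29.4% in all. Between the libraries labelled negative, 1 of 19 was apart and higher and 5 were apart and lower, where 14.1% and 13.0% of protein-coding genes were, 27.1% in all. The total share of members apart is thus near the background, and the members that were apart lay mostly on the lower side. As deposited, the split between the libraries labelled negative was 4 higher and 1 lower, and with upper-quartile rescaling the split between those labelled positive was 0 higher and 11 lower. Pfkl, Pkm2 and Ldha were apart and lower under both labels, and their rescaled bounds did not overlap between foot and back. As deposited, Pfkl alone stayed apart and lower for the negative label, where Pkm2 lay at -0.77 and Ldha at -0.58. The members nearest the 2-fold line were Hk2 (1.03, inside) and Egln1 (-0.99, outside) for the positive label, and Pgk1 (-1.09, inside) and Hif1a (0.83, outside) for the negative label. Genes of dissociation stress moved in the same comparisons: 9 of 9 compared lay below 0 for the positive label (median log2 ratio -2.06) and 10 of 11 for the negative label (median -2.0). Nr4a1, an immediate early gene, stood at 4.33 and 5.61 FPKM in the positive-labelled and negative-labelled foot libraries, against 36.3 and 82.2 in the back libraries. The part of this stress signal in the members' values was not tested.

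Ldha encodes the lactate dehydrogenase subunit that is typical of muscle and of tissues that make lactate. It lies at chr7:54096845-54110998 (mm9, as the tables give it) and stood at 109 FPKM (bounds 100 to 122) in the foot library labelled positive and 157 (151 to 167) in the foot library labelled negative, against 259 (254 to 270) and 235 (230 to 246) in the positive-labelled and negative-labelled back libraries. Both foot values were below both back values without overlap of the bounds. The log2 ratios of foot over back were -1.54 ± 0.15 for the positive label and -1.32 ± 0.09 for the negative label. By rank among protein-coding genes of its own library, a measure that needs no rescaling, Ldha was number 423 and 330 in the positive-labelled and negative-labelled foot libraries, and number 94 and 100 in the back libraries.

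Ldhb encodes the subunit typical of heart, and it went the other way. At chr6:142438769-142456477 (mm9) it stood at 26.6 FPKM (20.9 to 32.2) in the foot library labelled positive and 33.9 (29.5 to 38.4) in the foot library labelled negative, against 13.0 (11.1 to 14.9) and 7.19 (5.87 to 8.52) in the positive-labelled and negative-labelled back libraries. Both foot values lay above both back values. Its log2 ratio was 0.69 ± 0.35 for the positive label, short of 2-fold, and 1.4 ± 0.30 for the negative label. As deposited these ratios were 0.97 and 2.09.

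The ratio of Ldha to Ldhb FPKM inside a library does not depend on any rescaling. It was 4.09 in the foot library labelled positive and 4.64 in the foot library labelled negative, against 19.9 and 32.7 in the positive-labelled and negative-labelled back libraries. Taking the bounds at their most unfavourable, the foot ratios reached at most 5.84 and 5.68, and the back ratios at least 17 and 27.0. Ldhb thus made up 19.6% and 17.7% of the summed lactate dehydrogenase FPKM in the positive-labelled and negative-labelled foot libraries, against 4.79% and 2.97% in the back. This pair and the other pairs of members set against each other here were picked with their values in view.

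The proximal promoters of these genes are shown because the pair moved apart between foot and back and because the Ldha promoter is a textbook target of HIF. Each window runs from 250 bases before to 50 bases after a RefSeq start on GRCm38, 5′ to 3′ on the gene's strand, in lower case, and capitals mark ACGTG or GCGTG read on either strand (CACGT and CACGC on the other strand, and CACGTG holds ACGTG on both). The first Ldha window is chr7:46845554-46845853 on the plus strand, the second is chr7:46846832-46847131 on the plus strand, the Ldhb window is chr6:142507908-142508207 on the minus strand, and the window of Pfkl, described next, is chr10:78009758-78010057 on the minus strand.
Ldha, first start: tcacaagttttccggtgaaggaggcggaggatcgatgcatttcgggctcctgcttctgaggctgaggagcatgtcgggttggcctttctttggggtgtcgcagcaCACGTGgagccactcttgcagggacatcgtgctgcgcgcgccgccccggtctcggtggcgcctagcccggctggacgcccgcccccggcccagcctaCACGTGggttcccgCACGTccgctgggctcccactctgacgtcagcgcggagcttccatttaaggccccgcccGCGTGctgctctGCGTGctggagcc
Ldha, second start: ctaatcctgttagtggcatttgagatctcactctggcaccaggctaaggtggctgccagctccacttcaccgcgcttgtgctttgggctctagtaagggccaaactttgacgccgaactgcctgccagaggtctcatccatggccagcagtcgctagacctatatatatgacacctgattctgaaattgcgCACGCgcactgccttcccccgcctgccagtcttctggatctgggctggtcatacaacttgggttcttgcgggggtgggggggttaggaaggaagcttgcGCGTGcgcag
Ldhb: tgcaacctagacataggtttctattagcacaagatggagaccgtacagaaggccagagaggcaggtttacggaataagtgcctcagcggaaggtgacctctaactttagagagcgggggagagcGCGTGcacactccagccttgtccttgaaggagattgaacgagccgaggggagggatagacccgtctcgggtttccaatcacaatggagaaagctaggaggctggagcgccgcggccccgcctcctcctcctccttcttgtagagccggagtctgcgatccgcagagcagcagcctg
Pfkl: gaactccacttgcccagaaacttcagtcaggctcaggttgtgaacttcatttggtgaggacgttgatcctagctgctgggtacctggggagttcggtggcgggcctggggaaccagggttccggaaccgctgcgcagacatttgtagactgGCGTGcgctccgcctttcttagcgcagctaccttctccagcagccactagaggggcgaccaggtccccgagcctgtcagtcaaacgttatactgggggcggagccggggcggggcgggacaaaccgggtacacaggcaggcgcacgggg
The first Ldha window held 5 matches of ACGTG and 2 of GCGTG, counting both strands, and the second held 0 and 2. The Ldhb and Pfkl windows each held 0 of ACGTG and 1 of GCGTG. Over 57 RefSeq windows of 39 members, 52.6% held ACGTG and 77.2% held either core, where 20.9% and 49.3% of 21263 windows of protein-coding genes did. Many members belong to the set because they are known HIF targets, so this share describes the set and says nothing about binding in these cells.

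**Figure D2:**
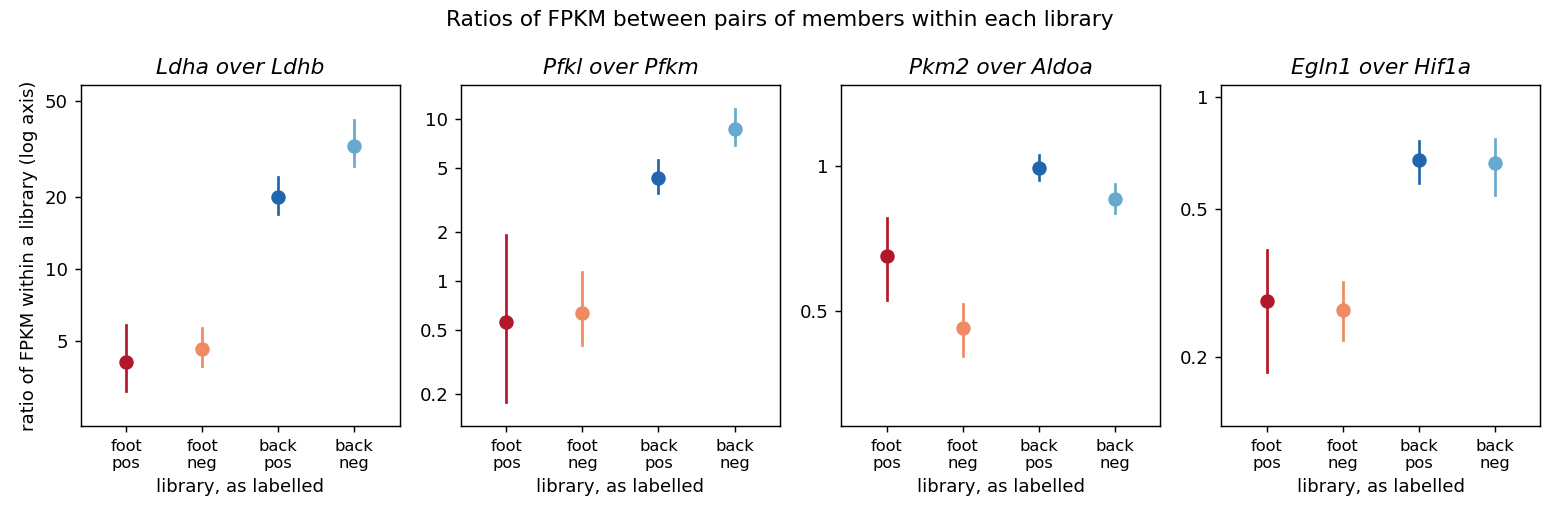
Ratio of FPKM between 2 members inside each library (log axis), with lines from the lowest to the highest ratio that the authors' bounds allow. For Ldha over Ldhb, Pfkl over Pfkm and Egln1 over Hif1a the ranges of both foot libraries lie below those of both back libraries, and for Pkm2 over Aldoa the highest foot limit is 0.780 and the lowest back limit 0.797.

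Phosphofructokinase, the committed and most regulated step, differed between foot and back mainly in the liver-type gene. Pfkl, the liver-type subunit gene at chr10:77449692-77472828 (mm9), stood at 1.62 FPKM (0.696 to 3.79) in the foot library labelled positive and 2.69 (2.01 to 3.95) in the foot library labelled negative, against 10.8 (10.1 to 11.7) and 14.1 (13.2 to 15.1) in the positive-labelled and negative-labelled back libraries. The gap between skins was wide, and the log2 ratios were -2.41 ± 0.83 for the positive label and -2.64 ± 0.36 for the negative label. Pfkm, the muscle-type subunit gene, stayed below 5 FPKM everywhere, at 2.90 (1.96 to 3.92) and 4.24 (3.48 to 5.04) in the positive-labelled and negative-labelled foot libraries, against 2.49 (2.09 to 2.90) and 1.61 (1.3 to 1.92) in the back libraries. Pfkp, the platelet-type subunit gene, was at 1.64 FPKM (1.08 to 5.58) in the foot library labelled positive and was at 0 in the remaining 3. The Pfkl to Pfkm ratio was 0.556 (0.178 to 1.93) and 0.633 (0.400 to 1.14) in the positive-labelled and negative-labelled foot libraries, against 4.34 (3.48 to 5.61) and 8.72 (6.87 to 11.6) in the back libraries. Pfkl was 26.2% and 38.8% of the summed phosphofructokinase FPKM in the positive-labelled and negative-labelled foot libraries, and 81.3% and 89.7% in the back libraries.

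The bifunctional enzymes that set the phosphofructokinase activator were low. Pfkfb3 ranged from 0.0547 to 1.51 FPKM over the 4 libraries and Pfkfb4 from 0.334 to 1.78, with wide bounds. Neither could be compared.

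Pyruvate kinase of muscle type, listed as Pkm2 (chr9:59504383-59527182, mm9), makes the final ATP of the pathway. The gene-level value does not separate the M1 and M2 splice forms. It stood at 61.8 FPKM (56.3 to 67.3) in the foot library labelled positive and 69.9 (65.4 to 74.5) in the foot library labelled negative, against 129 (127 to 134) and 120 (118 to 125) in the positive-labelled and negative-labelled back libraries. The foot and back values did not overlap, and the log2 ratio was -1.34 ± 0.13 for the positive label and -1.51 ± 0.10 for the negative label. Aldoa, the aldolase of most tissues, moved less. Its level was 95.1 FPKM (86.3 to 107) in the foot library labelled positive and 152 (144 to 162) in the foot library labelled negative, against 130 (127 to 136) and 141 (136 to 148) in the positive-labelled and negative-labelled back libraries. Its log2 ratio was -0.74 ± 0.16 for the positive label and -0.63 ± 0.10 for the negative label, and 0.11 for the negative label as deposited. Pkm2 over Aldoa was 0.650 and 0.459 in the positive-labelled and negative-labelled foot libraries, and 0.990 and 0.852 in the back libraries, so Pkm2 was lower in the foot relative to Aldoa as well. The Aldoa locus as assembled differed, at 14860 and 5520 bases in the positive-labelled and negative-labelled foot libraries. In the back libraries it spanned 5520 and 7579 bases. The part of this in the Aldoa values was not tested.

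The enzymes between aldolase and pyruvate kinase also lay lower in the foot after rescaling. Tpi1, triose phosphate isomerase, stood at 54.2 and 73.9 FPKM in the positive-labelled and negative-labelled foot libraries, and at 62.0 and 67.1 in the back libraries. Its log2 ratios were -0.49 ± 0.23 for the positive label and -0.60 ± 0.13 for the negative label, and 0.14 for the negative label as deposited. Eno1, the enolase of most tissues, stood at 26.7 and 35.8 FPKM in the positive-labelled and negative-labelled foot libraries, against 40.5 and 47.0 in the back libraries, and its ratio passed 2-fold for the negative label (-1.11 ± 0.15) after rescaling but not as deposited (-0.38). Pgk1, phosphoglycerate kinase, was at 11.4 and 12.8 FPKM in the positive-labelled and negative-labelled foot libraries, against 15.7 and 17.1 in the back libraries, with -1.09 ± 0.22 for the negative label and -0.39 as deposited. Pgam1 and Gapdh had ratios of -0.76 ± 0.28 and -0.50 ± 0.42 for the positive label and of -0.52 ± 0.17 and -0.45 ± 0.24 for the negative label. As deposited, Pgam1 and Gapdh were higher in the foot for the negative label, at 0.20 and 0.27.

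Several of these enzymes have near-identical copies. Of the 50-base words in the transcripts of Gapdh, 58.4% also occur in transcripts of other genes in GENCODE vM21, and the share was 68.0% for Pgk1, 49.5% for Eno1, 41.5% for Pgam1, 23.7% for Pkm2, 21.0% for Ldhb, 20.7% for Bnip3 and 24.4% for Bnip3l. It was 18.6% for Gpi1, 10.4% for Ldha and 0.0532% for Pfkl. The levels of the first group depend on how the authors' counting split such reads and are uncertain. Gapdh stood at 25.9 to 38.1 FPKM, and 3 of its 4 values lay above their own bounds. The part of shared reads in the differences was not tested.

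The glucose transporters and hexokinases were low, several with wide bounds, while Gpi1 was higher except in the foot library labelled positive. Slc2a1, the main glucose transporter of fetal tissue, stood at 2.20 FPKM (0.915 to 4.30) in the foot library labelled positive and 6.65 (5.28 to 8.01) in the foot library labelled negative, against 4.09 (3.55 to 4.65) and 3.12 (2.49 to 3.74) in the positive-labelled and negative-labelled back libraries. The foot library labelled negative was the highest of the 4 and the foot library labelled positive the lowest, so the back lay between them. Slc2a3 ranged from 0.493 to 1.68 FPKM. Hk1 ranged from 0.503 to 2.47 FPKM, and its value lay below its own bounds in both foot libraries. Hk2, the inducible hexokinase, stood at 5.78 FPKM (2.10 to 9.63) in the foot library labelled positive and 0.666 (0 to 1.66) in the foot library labelled negative, against 1.85 (1.08 to 2.62) and 1.63 (0.974 to 2.25) in the positive-labelled and negative-labelled back libraries. Its foot over back ratio was 1.03 ± 0.89 for the positive label, and the rescaled bounds of the 2 values overlapped. Gpi1, glucose phosphate isomerase, stood at 4.79 FPKM (2.46 to 8.20) in the foot library labelled positive and 14.2 (12.1 to 16.5) in the foot library labelled negative, against 13.6 (12.4 to 14.8) and 12.9 (11.6 to 14.3) in the positive-labelled and negative-labelled back libraries. Only the foot library labelled positive stood apart from the others, with a foot over back ratio of -1.60 ± 0.71 for the positive label and -0.56 ± 0.25 for the negative label. The brain-type genes Aldoc and Eno2 stayed under 1 FPKM wherever they were above 0.

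Genes that decide the fate of pyruvate, a group of kinases and lactate transporters, were low to moderate in level. Where foot and back had a ratio, each lay below 0 after rescaling, while Pdk1 (0.24) and Slc16a1 (0.31) lay above 0 for the negative label as deposited. Pdk3, a pyruvate dehydrogenase kinase, had 5.52 FPKM (3.15 to 8.14) and 10.2 (8.47 to 12) in the positive-labelled and negative-labelled foot libraries, against 10.2 (9.20 to 11.2) and 10.8 (9.75 to 11.9) in the back libraries. The log2 ratio was -1.04 ± 0.56 for the positive label and -0.75 ± 0.26 for the negative label. Pdk1, the kinase best known as a HIF target, ranged from 2.55 to 4.84 FPKM and was highest in the back library labelled positive. Slc16a1, a lactate transporter, had 1.85 FPKM (1.25 to 2.41) and 4.59 (3.89 to 5.28) in the positive-labelled and negative-labelled foot libraries, and at 3.94 and 3.52 in the back libraries. Slc16a3, the export-type lactate transporter and a HIF target, stood at 1.67 FPKM (0.907 to 4.69) in the foot library labelled positive, was listed at 0 in the foot library labelled negative, and stood at 3.62 (2.97 to 4.54) and 3.89 (3.22 to 4.87) in the positive-labelled and negative-labelled back libraries.

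**Figure D3:**
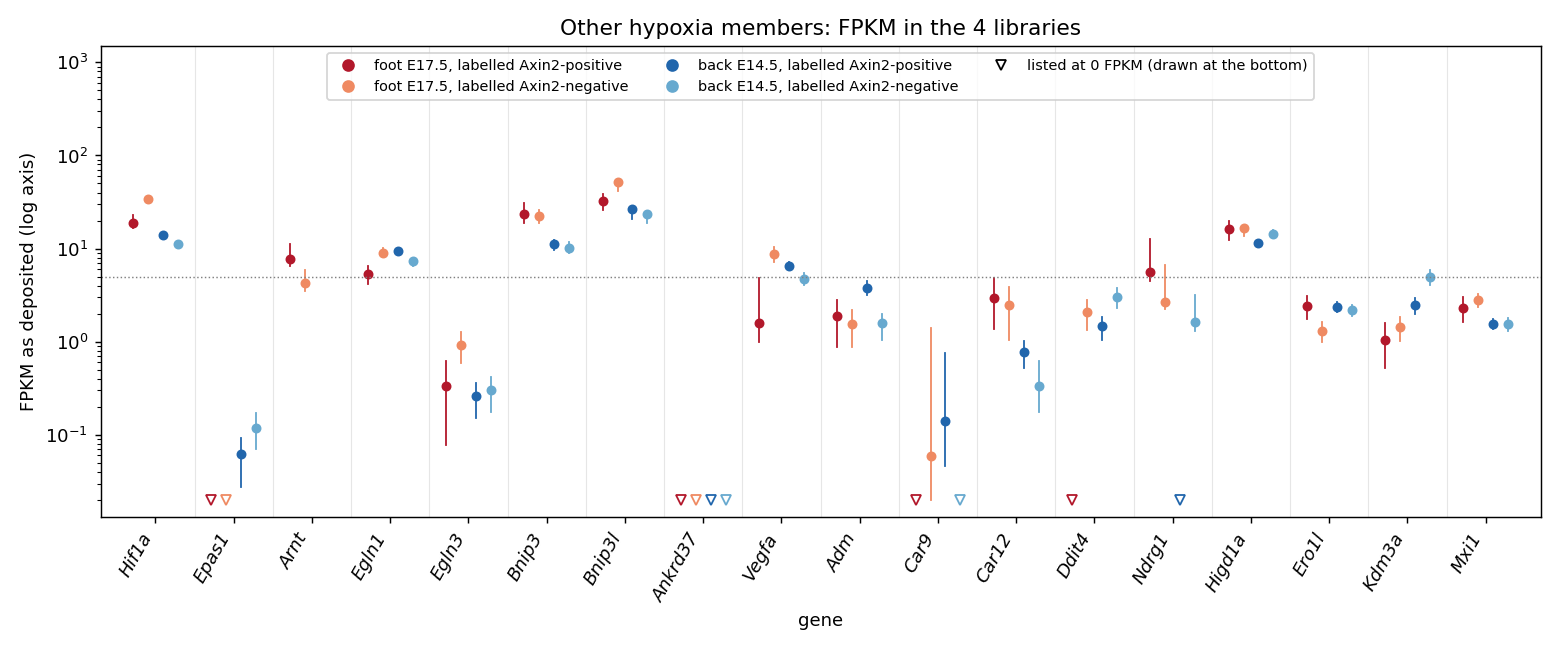
FPKM as deposited (log axis) of the 18 other hypoxia members in the 4 libraries, drawn as for the glycolysis members; Arnt has values of its own in the foot libraries only. Hif1a, Bnip3 and Bnip3l have their highest value in a foot library, and Ankrd37 is listed at 0 throughout.

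The other hypoxia members did not share the direction of the glycolysis members. Between the libraries labelled positive, 3 of 6 compared were higher in the foot and 3 lower, with a median log2 ratio of 0.05 beside 0.00 over all protein-coding genes. Between the libraries labelled negative, 4 of 6 were higher and 2 lower, at a median of 0.25 beside 0.04. As deposited all 6 were higher for the negative label, with a median of 0.92 beside 0.73. With upper-quartile rescaling the medians were -0.40 and -0.06 for the positive and negative labels, so the sign of this group depends on the scale. The difference between the 2 groups of members was not tested.

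Hif1a encodes the oxygen-regulated HIF-alpha subunit, whose control lies mainly in protein stability, so its transcript level is not a reading of HIF activity. At chr12:75002362-75048517 (mm9) it stood at 18.8 FPKM (16.6 to 22.8) in the foot library labelled positive and 34.0 (31.7 to 36.2) in the foot library labelled negative, against 14.1 (13.4 to 15.0) and 11.1 (10.4 to 12) in the positive-labelled and negative-labelled back libraries. Both foot values were above both back values as deposited. After rescaling the log2 ratios were 0.11 ± 0.24 for the positive label and 0.83 ± 0.13 for the negative label. Epas1, the HIF-2 alpha gene of endothelium and other cells, was listed at 0 in both foot libraries and stood at 0.0625 and 0.119 FPKM in the positive-labelled and negative-labelled back libraries. Arnt, the shared partner subunit, stood at 7.73 FPKM (6.52 to 11.1) in the foot library labelled positive and 4.28 (3.47 to 5.84) in the foot library labelled negative. In the back, the locus that joins Arnt with Ctsk stood at 70.9 and 55.5 FPKM in the libraries labelled positive and negative. No foot over back ratio can be given for Arnt, since Ctsk alone stood at 104 and 138 FPKM in the foot.

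Egln1, the main prolyl hydroxylase that marks HIF-alpha, was lower in the foot after rescaling. It stood at 5.34 FPKM (4.18 to 6.46) in the foot library labelled positive and 9.07 (8.03 to 10.1) in the foot library labelled negative, against 9.50 (8.82 to 10.2) and 7.36 (6.51 to 8.01) in the positive-labelled and negative-labelled back libraries. The log2 ratios were -0.99 ± 0.27 and -0.39 ± 0.20 for the positive and negative labels, neither past 2-fold, and 0.27 for the negative label as deposited. Relative to Hif1a inside each library, Egln1 was at 0.283 (0.183 to 0.389) and 0.267 (0.222 to 0.319) in the positive-labelled and negative-labelled foot libraries, against 0.675 (0.589 to 0.762) and 0.664 (0.544 to 0.769) in the back libraries. The foot and back ranges of this ratio did not overlap. Egln3, a hydroxylase that HIF itself induces, ranged from 0.260 to 0.916 FPKM.

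Bnip3 and Bnip3l encode mitophagy receptors and are HIF targets. Bnip3 had 23.6 FPKM (18.6 to 30.8) and 22.3 (18.8 to 25.8) in the positive-labelled and negative-labelled foot libraries, against 11.1 (9.72 to 12.5) and 10.2 (8.88 to 11.7) in the back libraries. As deposited the foot was higher under both labels without overlap, and after rescaling the log2 ratios were 0.74 ± 0.40 and 0.36 ± 0.29 for the positive and negative labels. Bnip3l, its relative, known for clearing mitochondria from red cells, had 32.3 FPKM (25.9 to 38.6) and 51.8 (41.1 to 54.7) in the positive-labelled and negative-labelled foot libraries, against 26.4 and 23.7 in the back libraries. Both back values of Bnip3l lay just above their own bounds. The rescaled ratios were -0.01 ± 0.30 and 0.38 ± 0.23 for the positive and negative labels. The 3 erythroid markers in the tables were listed at 0 in both foot libraries, where Bnip3l was higher as deposited, and summed to 3.76 and 13.7 FPKM in the positive-labelled and negative-labelled back libraries.

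Vegfa, the main angiogenic growth factor and a classical HIF target, was low in 1 foot library. At chr17:46153942-46169326 (mm9) it stood at 1.58 FPKM (1.0 to 4.89) in the foot library labelled positive and 8.76 (7.09 to 10.5) in the foot library labelled negative, against 6.51 (5.89 to 7.14) and 4.71 (4.05 to 5.40) in the positive-labelled and negative-labelled back libraries. Its foot over back ratio was -1.77 ± 1.06 for the positive label and 0.13 ± 0.30 for the negative label. Higd1a, a mitochondrial protein gene induced in hypoxia, stood at 16.3 and 16.6 FPKM in the positive-labelled and negative-labelled foot libraries, and 11.4 and 14.3 in the back libraries. Its foot over back ratio for the negative label was -0.50 ± 0.21, and 0.20 as deposited.

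The remaining hypoxia genes were low. Adm, which encodes the vasodilator adrenomedullin, ranged from 1.54 to 3.81 FPKM and was highest in the back library labelled positive. Car12, a carbonic anhydrase, had 2.98 FPKM (1.38 to 4.82) and 2.45 (1.04 to 3.87) in the positive-labelled and negative-labelled foot libraries, against 0.769 (0.522 to 1.03) and 0.333 (0.177 to 0.623) in the back libraries. The bounds of each foot value lay above those of each back value as deposited. After rescaling, the foot and back bounds of Car12 stayed separate for the positive label but overlapped for the negative label. Car9, the carbonic anhydrase most used as a hypoxia marker, was listed at 0 in the foot library labelled positive and the back library labelled negative, and stood at 0.0591 and 0.141 FPKM in the foot library labelled negative and the back library labelled positive. Kdm3a, a histone demethylase gene, stood at 1.04 (0.519 to 1.57) and 1.44 FPKM (1.03 to 1.85) in the positive-labelled and negative-labelled foot libraries, against 2.49 (2.0 to 2.97) and 4.94 (4.03 to 5.83) in the back libraries, so both foot values were the lower ones. Ero1l, an oxidase of protein folding, ranged from 1.31 to 2.43 FPKM, and Mxi1, a Myc antagonist gene, from 1.56 to 2.79. Ddit4, an mTOR inhibitor gene that also answers general stress, was listed at 0 in the foot library labelled positive and stood at 2.10, 1.47 and 3.05 FPKM in the foot library labelled negative and the positive-labelled and negative-labelled back libraries.

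**Figure D4:**
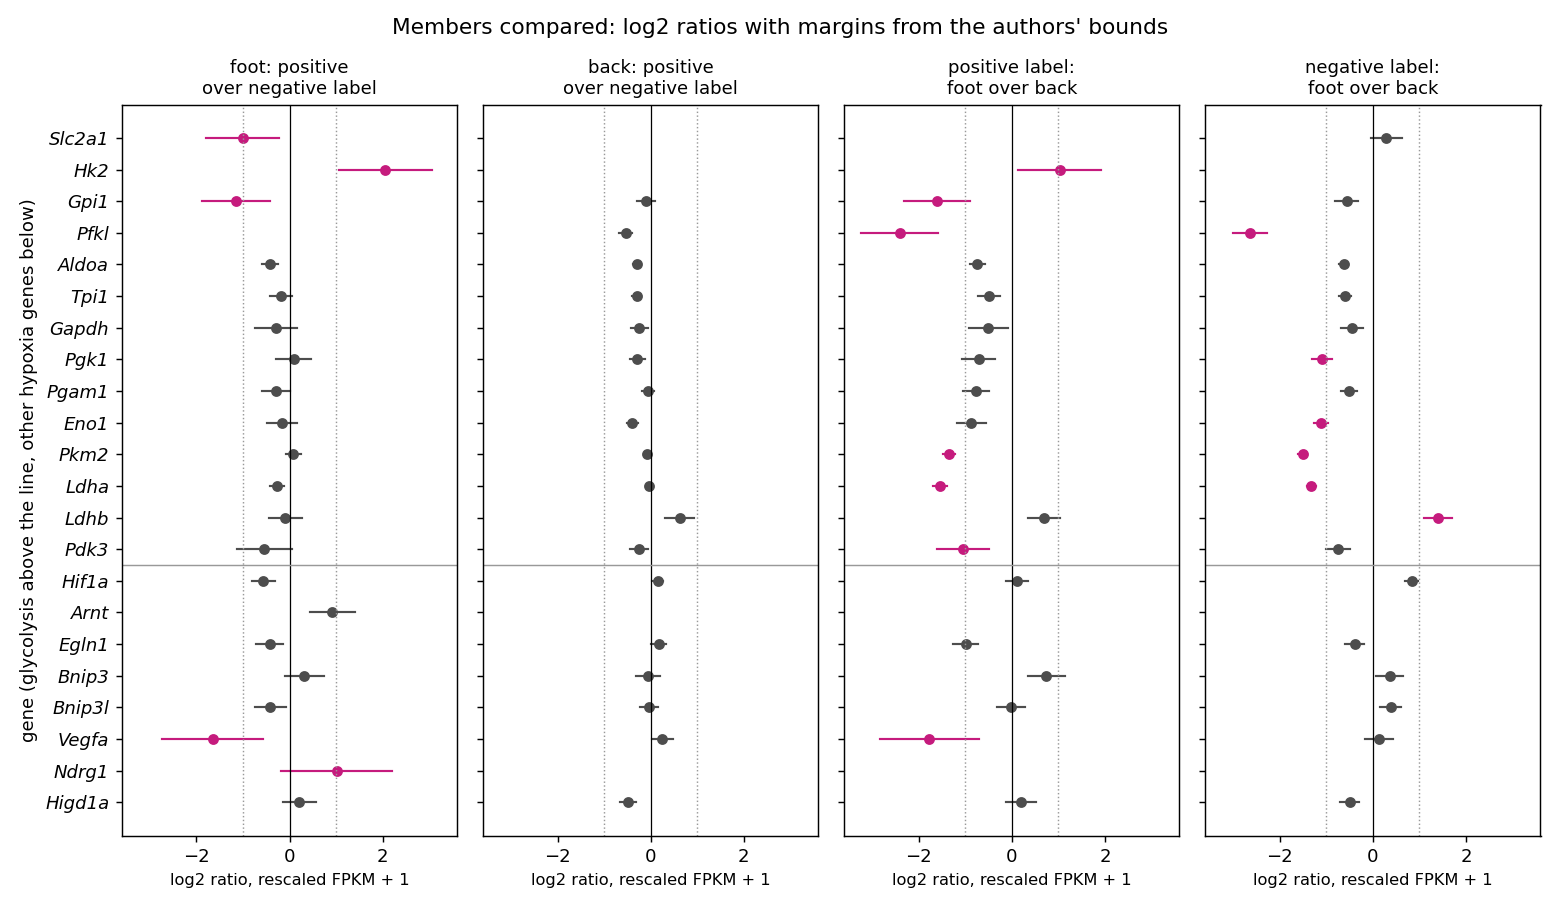
Log2 ratios of rescaled FPKM + 1 for the members compared in each pair of libraries, with margins from the authors' bounds; coloured points are at least 2-fold apart (dotted lines), grey points are not, and members not compared in a pair have no point. Glycolysis members lie left of 0 in the foot over back panels, except Ldhb and Hk2 for the positive label and Ldhb and Slc2a1 for the negative label, and no member is 2-fold apart in the back between the labels.

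The comparison of the reporter labels in the foot asks which of these genes go with Wnt reporter activity where sweat glands form. Axin2 transcript did not follow these labels, and every sign in the paragraph would turn if they were the other way round. Of 21 members compared, 2 were apart and higher in the positive-labelled library and 3 were apart and lower, where 19.9% of 5507 protein-coding genes were apart in either direction. Hk2 was higher, with a log2 ratio of 2.06 ± 1.0. Ndrg1, a stress and hypoxia gene, stood at 5.58 FPKM (4.52 to 12.8) in the positive-labelled library and 2.66 (2.27 to 6.60) in the library labelled negative. Its log2 ratio was 1.01 ± 1.19, and the bounds overlapped. In the back Ndrg1 was listed at 0 in the library labelled positive and had 1.62 FPKM (1.29 to 3.16) in the negative-labelled library. Arnt lay just short of 2-fold, at 0.92 ± 0.48. Vegfa was lower at -1.65 ± 1.08, Gpi1 at -1.14 ± 0.73 and Slc2a1 at -1.01 ± 0.78. The abundant enzymes stayed within 2-fold between the labels. Aldoa had -0.42 ± 0.18, Ldha -0.27 ± 0.16, Tpi1 -0.19 ± 0.24, Ldhb -0.09 ± 0.35 and Pkm2 0.08 ± 0.16. The rescaled bounds of Aldoa and of Ldha did not overlap between the labels, and as deposited their ratios were -0.68 and -0.53. Of 13 glycolysis members 10 lay below 0, with a median of -0.27 beside 0.01 over protein-coding genes. As deposited 12 of 13 did, with a median of -0.53 beside -0.23, and Pkm2 lay at -0.18. After rescaling Hif1a lay at -0.56 ± 0.24 with Egln1 at -0.43 ± 0.29. Summed mast cell markers, given above, were far higher in the library labelled negative, and skeletal muscle markers summed to 2.03 FPKM in the library labelled positive and 14.7 in the library labelled negative. Of 8 dissociation stress genes compared 7 lay below 0, with a median of -0.48. The part of these signals in the members' ratios was not tested.

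In the back the same comparison gave no member apart. Of 18 compared, 0 were 2-fold apart in either direction, where 6.90% of 4463 protein-coding genes were. No test exists with 1 library a group, so the count says only that no ratio reached 2-fold. The largest ratios were those of Ldhb at 0.62 ± 0.31, which was higher in the library labelled positive, and of Pfkl at -0.53 ± 0.14, which was lower. Higd1a lay at -0.48 ± 0.17 and Eno1 at -0.39 ± 0.11. Of 12 glycolysis members 11 lay below 0 after rescaling, with a median of -0.25 beside 0.05 over protein-coding genes, and 7 of 12 as deposited, with a median of -0.07 beside 0.22. Of 11 dissociation stress genes compared 9 lay below 0 and 6 were apart and lower, with a median of -1.13. Leukocyte markers summed to 3.57 FPKM in the library labelled positive and 17 in the library labelled negative, and mast cell and erythroid markers, given above, were also lower in the library labelled positive. The part of these signals was not tested.

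The foot log2 ratio minus the back log2 ratio asks whether the label goes with different changes in the 2 skins. Of 20 members compared, 4 differed by at least 1, where 24.7% of 5633 protein-coding genes did. Hk2 lay at 2.06 ± 1.14, and Vegfa at -1.90 ± 1.1, Slc2a1 at -1.18 ± 0.83 and Gpi1 at -1.04 ± 0.76. For these genes the difference came from the foot, since their back ratios were -0.00, 0.25, 0.17 and -0.10. Their sign follows the foot labels, which Axin2 transcript did not follow.

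Genes around the pathway were described from lists chosen with earlier results of these data known. Of 8 genes for the entry of pyruvate into mitochondria compared between the libraries labelled positive, 0 were apart, and of 7 compared between those labelled negative 2 were apart and higher in the foot and 1 lower. Brp44 and Brp44l, whose products form the mitochondrial pyruvate carrier, stood at 303 and 94.5 FPKM in the foot library labelled negative, against 67.7 and 24.1 in the back library labelled negative, with log2 ratios of 1.41 ± 0.16 and 1.2 ± 0.20. In the libraries labelled positive they stood at 192 and 58.3 FPKM in the foot, against 102 and 36.2 in the back. Dlat, a pyruvate dehydrogenase subunit gene, lay at -1.05 ± 0.39 for the negative label. Of 13 HIF regulators compared for the negative label 1 was apart and higher in the foot and 2 were lower, and for the positive label 1 of 11 was higher and 1 lower. Over protein-coding genes 27.1% were apart for the negative label and 29.4% for the positive label. Siah1a, a ubiquitin ligase gene, stood at 11.6 FPKM in the foot library labelled negative, against 0.643 in the back library labelled negative. Hif1an encodes the asparaginyl hydroxylase that blocks HIF activity. It stood at 1.69 FPKM in the foot library labelled negative, against 8.01 in the back library labelled negative, a log2 ratio of -2.29 ± 0.47. In the libraries labelled positive Hif1an stood at 2.78 FPKM in the foot and 2.02 in the back. Only the back library labelled negative was thus high, and the ratio between the labels in the back was -1.78 ± 0.28. Ube2s lay at -1.59 ± 0.38 for foot over back with the negative label.

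Further HIF targets outside the set were divided. For the negative label 8 of 20 compared were apart and higher in the foot and 1 lower, and for the positive label 3 of 16 were higher and 3 lower. Over protein-coding genes 14.1% were higher and 13.0% lower for the negative label, and 14% and 15.4% for the positive label. The list's medians were 0.43 for the negative label and 0.14 for the positive label, and 1.06 and 0.44 as deposited. Angptl4, a lipase inhibitor gene, stood at 11.3 and 8.27 FPKM in the positive-labelled and negative-labelled foot libraries, against 41.6 and 38.9 in the back libraries, with log2 ratios of -2.08 ± 0.40 and -2.79 ± 0.29. Tmem45a and Ppp1r3c, a glycogen regulator gene, went the other way for the negative label, at 2.03 ± 0.19 and 2.01 ± 0.26. Between the labels in the back 4 of 15 were apart and higher in the positive-labelled library and 0 lower, Tmem45a among them at 1.13 ± 0.19, where 4.17% of protein-coding genes were higher and 2.73% lower.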

How the data were processed

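Sorted dermal cells from foot skin (E17.5) and back skin (E14.5) of Axin2-LacZ mouse embryos gave 1 TruSeq mRNA library per group, 4 in all. Per the submitters' processing notes, the authors used TopHat and Cufflinks on mm9. Tool versions and the gene annotation were not given in the sources used here. Per the file headers, the authors deposited FPKM, its lower and upper bounds and a fit status for every gene. No confidence level is named for the bounds. Read counts were not used, so depth is known only through the bounds, which cover read counting and assignment inside a library.

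Entries of one symbol were summed and unnamed loci left out. In the foot library labelled positive, 22 symbols had become calendar dates; 17 that could not be restored by Ensembl ID were left out. Factors are median ratios over 4834 genes of at least 5 FPKM in all libraries. Ratios are log2 of rescaled FPKM with a pseudocount of 1, which understates changes of low genes. Background shares are over protein-coding genes (GENCODE vM21 symbols); over all named genes they were 19.0% (foot labels), 6.21% (back labels), 27.7% and 24.9% (foot over back, positive and negative label) and 23.1% (difference of ratios). Scripts ran in Python 3.11.15 with pandas 2.3.3 and were tested on simulated data. Promoters come from RefSeq (GRCm38), found for 39 of 43 members. Transcript words of 50 bases were searched on the same strand in GENCODE vM21. Every member is accounted for; members apart or of at least 50 FPKM are given in all 4 libraries, and other lists name at most 3 genes, those with the largest ratios. The members and lists were chosen with earlier results of these data known. Alternatives tried were FPKM as deposited, upper-quartile rescaling, a pseudocount of 0.1, a floor of 1 FPKM or none, genes listed at 0 kept, the highest entry per symbol, and bounds apart as well.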

Additional observations from a re-analysis of the deposited data

How the results depend on the processing

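With 1 library per group no replicate could be left out. No paired analysis was possible because each group holds a single library and the labels carry no replicate numbers. The number of members apart stayed within 1.5 times its main value under all 8 alternatives in each comparison, with 1 exception: foot over back for the positive label had 7 members apart and 11 with upper-quartile rescaling, all 11 lower in the foot. Counts ranged from 4 to 6 for the labels in the foot, were 0 throughout in the back, ranged from 5 to 9 for foot over back with the negative label, and from 4 to 6 for the difference of ratios. Which genes were apart changed for the negative label as deposited, where Ldhb, Hif1a, Bnip3 and Bnip3l were higher and Pfkl lower. Of 97 single ratios, 52 moved by more than their margin as deposited and 38 with upper-quartile rescaling, but 2 with a pseudocount of 0.1 and 0 with the highest entry per symbol; no member apart changed its direction under these 4. With upper-quartile rescaling the foot over back medians of the other hypoxia members were -0.40 (positive label) and -0.06 (negative label), against 0.05 and 0.25 as reported; the cause was not tested. The median of the glycolysis members for foot over back moved to -1.21 (positive label) and -0.96 (negative label) with upper-quartile rescaling. Wide bounds in the foot library labelled positive limit every ratio of low genes that uses it.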

Other observations

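Other lists near the pathway held few genes to compare. Over protein-coding genes 19.9% were apart between the labels in the foot and 6.90% in the back. For foot over back 29.4% were apart for the positive label and 27.1% for the negative label. Of 4 further glycolysis isoenzyme genes compared for each pair of libraries, Bpgm, which makes the red cell regulator bisphosphoglycerate, was the only one apart. It stood at 7.76 and 10 FPKM in the positive-labelled and negative-labelled foot libraries, against 2.70 and 7.17 FPKM in the positive-labelled and negative-labelled back libraries, and its log2 ratio between the labels in the back was -1.33 ± 0.37. Of 4 pentose phosphate genes compared for the negative label, Pgd was apart and lower in the foot, at 6.78 FPKM in the foot library labelled negative, against 9.70 in the back library labelled negative (log2 ratio -1.12 ± 0.28). No gluconeogenesis gene compared was apart, but only 2 were compared between the labels in the foot and 0 in the back. For foot over back 1 was compared for the positive label and 2 for the negative label.

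Of 14 listed angiogenic ligand and receptor genes other than Vegfa, 3 to 5 could be compared in a pair of libraries. Pgf, the placental growth factor gene, stood at 1.19 FPKM in the foot library labelled positive and 8.73 in the foot library labelled negative, a log2 ratio of -1.88 ± 0.51, beside -1.65 ± 1.08 for Vegfa. Calcrl, the receptor gene for adrenomedullin, stood at 7.30 and 5.77 FPKM in the positive-labelled and negative-labelled foot libraries, against 1.34 and 1.31 in the back libraries, and Vegfb at 6.88 and 10.2 FPKM in the foot, against 15.4 and 12.8 in the back.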
